A study of Mus musculus with 6 samples.

Results

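Chemokine signalling genes and the chymase gene Cma1 were followed in the prospective lens tissue of mouse embryos with and without Pax6, a transcription factor needed for lens formation. The group held 5 genes: the secreted chemokines Cxcl5, Cxcl12 and Cxcl14, the receptor Cxcr4 and the protease Cma1. They are 5 of the 17711 genes named on the array and were taken by symbol, which gave 8 of its 46632 probes, 3 for Cxcl12, 2 for Cxcl14 and 1 for each other gene. Cma1 and Cxcl5 had been chosen by their measured signals, because they were seen to disappear in knockout, so the values of both genes are a description and carry no test. The other 3 genes were added because they are chemokine genes, with earlier results of the same arrays known.

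The 6 arrays measured 6 embryos at embryonic day 9.5 on a mixed FVB and 129 background, 3 wild type and 3 Pax6-/-. The labels call the dissected tissue lens placode in wild type and surface ectoderm in knockout. They do not name the Pax6 allele. Both eyes of an embryo were pooled, the tissue was cut from 10 micrometre sections by laser, and cDNA was amplified from 15 ng of RNA.

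Chemokines are small secreted proteins that steer migrating cells through receptors coupled to G proteins. Cxcl12 acts through Cxcr4 and is known for guiding neural crest, germ and blood-forming cells, while the atypical receptor Ackr3 takes Cxcl12 up. Mouse Cxcl5 draws neutrophils through Cxcr2, and Cxcl14 is made mainly by epithelia. Cma1 encodes a chymase stored in the granules of connective tissue mast cells.

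Between 38.8% and 41.6% of probes were detected per array, meaning a detection p-value under 0.05 against the negative controls. Knockout 1 had the lowest median raw signal, 41.7 against 47.3 to 49.8 on the other arrays. On the component that carried most variance (30.2%) it lay at 64.1, and the other arrays at -31.2 to 1.55. The differences of the 5 genes are therefore also given without it, while the correlations below use all arrays. Pax6 RNA was still detected on all 3 knockout arrays, and its brightest probe did not pass the test (log2 difference -0.74, SE 0.21, limma adjusted p = 0.428). Of the 11 lens placode markers on the array 9 were tested. Maf and Prox1, 2 of these, passed as lower, against 0.157% of all genes and unnamed probes passing in either direction. Foxe3 and Cryaa were not detected on any array. Xist was detected on all 3 wild type and 0 knockout arrays, and the Y-linked Kdm5d on 0 wild type and all 3 knockout arrays. The Y-linked Eif2s3y and Uty were detected on all 3 knockout arrays and also on 2 and 1 of the wild type arrays, at lower levels. Genotype and sex cannot be told apart in any difference below.

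The RefSeq promoter windows of 3 of the genes are shown because the results turn on these genes: the protease not detected in knockout (Cma1), the ligand whose probes all read lower there (Cxcl12) and the receptor that overlapped between genotypes (Cxcr4). Each runs 5′ to 3′ on the strand of its gene from 250 bases before the start to 50 bases after it, in the build GRCm38.p6. Capitals mark matches to 6 motifs, each searched on both strands. For Pax6 itself the search used TTCACGC, a core of the site of its paired domain. The palindromic site of paired homeodomains with a spacer of 3 bases was searched as well. For Maf factors of the lens the letters were TGCTGAC. For the factors known from mast cells and blood they were GATAA. The general promoter elements were the TATA box, searched as TATAAA, and the Sp1 site, searched as GGGCGG.
Cma1: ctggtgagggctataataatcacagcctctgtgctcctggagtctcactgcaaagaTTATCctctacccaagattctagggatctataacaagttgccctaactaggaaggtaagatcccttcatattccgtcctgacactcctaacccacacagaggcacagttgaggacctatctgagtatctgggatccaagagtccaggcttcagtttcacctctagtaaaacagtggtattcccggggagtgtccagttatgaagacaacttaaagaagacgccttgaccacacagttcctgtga
Cxcl12: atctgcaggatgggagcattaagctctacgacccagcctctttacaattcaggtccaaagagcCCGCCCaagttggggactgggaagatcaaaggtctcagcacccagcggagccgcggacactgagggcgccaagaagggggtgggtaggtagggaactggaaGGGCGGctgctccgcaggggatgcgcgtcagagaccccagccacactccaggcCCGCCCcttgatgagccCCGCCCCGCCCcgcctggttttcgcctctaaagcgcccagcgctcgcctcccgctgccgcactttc
Cxcr4: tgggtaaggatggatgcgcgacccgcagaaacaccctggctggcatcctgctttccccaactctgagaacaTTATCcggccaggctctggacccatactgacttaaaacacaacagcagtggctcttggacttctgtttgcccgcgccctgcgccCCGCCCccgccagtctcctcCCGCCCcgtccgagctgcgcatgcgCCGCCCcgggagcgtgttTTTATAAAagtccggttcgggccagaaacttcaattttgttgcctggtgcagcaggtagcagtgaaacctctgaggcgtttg

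The windows lie at chr14:55944626-55944925 on the minus strand for Cma1, chr6:117168285-117168584 on the plus strand for Cxcl12 and chr1:128592250-128592549 on the minus strand for Cxcr4. Of the 5 genes 4 had a window in the table, and Cxcl5 had none. The Cma1 window had a GC content of 47.0%, with 3 CpG dinucleotides and 1 GATAA match. The Cxcl12 window had a GC content of 64.7%, with 20 CpG dinucleotides and 5 GGGCGG matches, of which a pair overlap. The Cxcr4 window had a GC content of 59.3% with 20 CpG dinucleotides, 3 GGGCGG matches, 1 GATAA match and 2 overlapping TATAAA matches on opposite strands. The Cxcl14 window, not printed, had a GC content of 62.7% and 3 GGGCGG matches. The Pax6, homeodomain and Maf letters were in none of the 4 windows. Among 32851 windows of the same length the median GC content was 52.7%. TTCACGC was in 1.26% of them, the homeodomain site in 0.487%, TGCTGAC in 4.67%, GATAA in 25.4%, TATAAA in 13.6% and GGGCGG in 35.7%.

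Cma1 was bright in wild type and near background in knockout. Its 1 probe, ILMN_2594908, read raw signals (mean bead brightness, with the SE over beads) of 296 ± 12.3, 225 ± 12.0 and 325 ± 15.1 on wild type arrays 1, 2 and 3. On knockout arrays 1, 2 and 3 it read 38.4 ± 1.94, 46.0 ± 2.32 and 52.7 ± 2.80. The lowest wild type value lay above the highest knockout value. The errors over beads are those within 1 array and not the spread between embryos. The probe was detected on all 3 wild type arrays and on 0 of 3 knockout arrays, where its detection p-values were 0.240, 0.200 and 0.0749. Knockout 3 came closest to the detection limit.

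After normalization Cma1 read 8.002, 7.512 and 8.098 on the log2 scale in wild type and 4.91, 4.91 and 5.04 in knockout. The means were 7.87 ± 0.31 and 4.95 ± 0.08 (SD, n = 3 embryos each), a log2 difference of -2.92. Because no knockout array gave a signal above background, the difference is a bound, at least 6.58-fold lower at the background offset of 16. The bound holds for that offset alone. The size depends on how background is treated: the log2 difference was -2.05 with a background offset of 50 and -3.44 in the authors' deposited normalized values, with no overlap in either. Without knockout 1 it was -2.89. In this tissue of several cells, fewer cells of a type and less RNA per cell cannot be told apart.

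Cxcl5 showed the same pattern of detection in wild type alone. The probe ILMN_1230278 read raw signals of 125 ± 6.83, 117 ± 6.30 and 111 ± 6.31 in wild type 1, 2 and 3, and 37.2 ± 2.04, 38.5 ± 1.98 and 37.8 ± 1.65 in knockout 1, 2 and 3. The 3 knockout values were closer to each other than their errors over beads. Detection p-values were 0.00561 to 0.00686 in wild type and 0.289 to 0.658 in knockout. The normalized log2 means were 6.39 ± 0.16 and 4.83 ± 0.05 (SD, n = 3 each), a difference of -1.56. The bound was at least 2.36-fold lower, for the background offset of 16 alone. With an offset of 50 the log2 difference was -0.92, and without knockout 1 it was -1.59. From the authors' deposited normalized values it was -2.39, after negative values were counted as no signal and 16 was added before the log2. The deposited values were 1.88, -4.21 and -4.08 in knockout 1, 2 and 3, so the size of -2.39 rests largely on the added 16.

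Detection on all 3 wild type and on no knockout array, the pattern that both genes were chosen for, held for 114 of the 14686 genes and unnamed probes tested (0.776%). Both genes entered the test through their wild type signal alone. Over the 6 arrays the log2 values of Cma1 and Cxcl5 correlated at 0.98, but their deviations from the genotype means correlated at -0.08. Both genes were chosen for the split by genotype, which all 6 arrays carry. Their knockout values are near background, so these correlations cannot show whether the genes shared an order within a genotype.

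**Figure D1:**
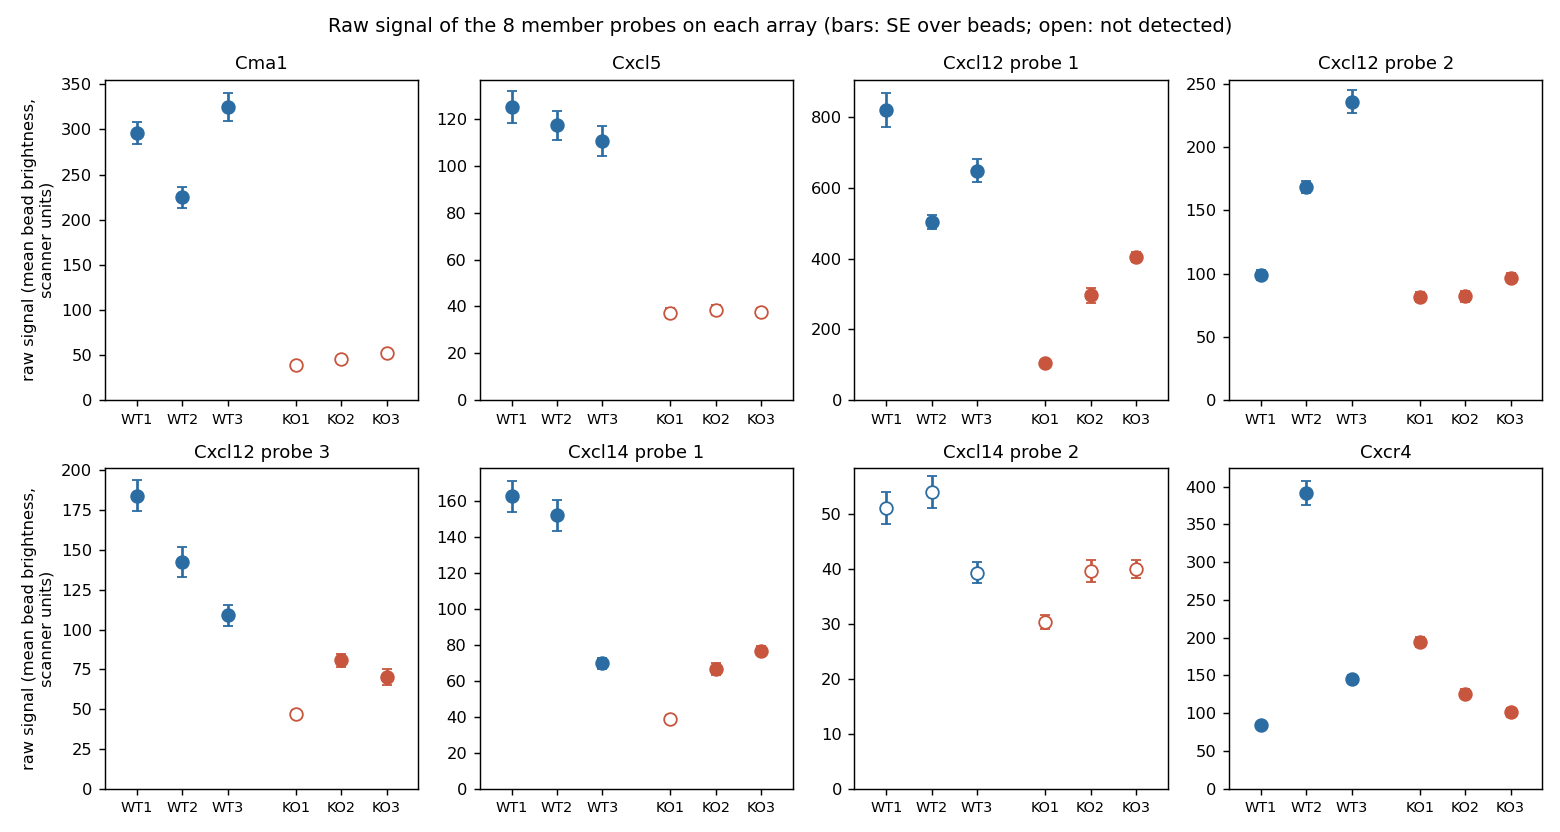
Raw signal (vertical axis, mean bead brightness in scanner units, from 0) of the 8 probes of the 5 genes on each array, wild type 1 to 3 in blue (WT) and Pax6 knockout 1 to 3 in red (KO). Bars are the SE over beads and open circles are arrays where the probe was not detected: Cma1 and Cxcl5 are open on all 3 knockout arrays, while Cxcr4 is detected on all 6.

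Cxcl12, the ligand of Cxcr4, read lower in knockout with each of its 3 probes, by amounts that did not pass the test. Its brightest probe, ILMN_2658910, is annotated to another RefSeq transcript than the remaining pair. It read raw signals of 820 ± 48.2, 504 ± 20.0 and 650 ± 33.4 in wild type 1, 2 and 3, against 104 ± 6.83, 297 ± 21.2 and 406 ± 13.5 in knockout 1, 2 and 3. All wild type arrays lay above all knockout arrays, and knockout 1 lay far below the other knockout arrays. The normalized log2 values were 9.504, 8.786 and 9.221 in wild type and 6.55, 8.10 and 8.55 in knockout. The log2 means of 9.17 ± 0.36 and 7.73 ± 1.05 (SD, n = 3 each) differ by -1.44, 2.71-fold (SE 0.47, 95% interval -2.51 to -0.37, limma adjusted p = 0.508). Without knockout 1 the difference was -0.84, still with no overlap.

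The second probe, ILMN_2737302, read 99.0 ± 3.90, 168 ± 4.98 and 236 ± 8.85 in wild type 1, 2 and 3, and 81.4 ± 3.72, 82.1 ± 4.20 and 96.7 ± 3.39 in knockout 1, 2 and 3. Here wild type 1 and knockout 3 differed by less than their errors over beads. The log2 difference was -0.97 (SE 0.42, 95% interval -1.91 to -0.03, adjusted p = 0.683 by limma with every probe tested). The third probe, ILMN_2746295, read 184 ± 9.56, 142 ± 9.4997 and 109 ± 6.57 in wild type and 46.9 ± 2.59, 80.8 ± 3.95 and 70.1 ± 5.14 in knockout, where knockout 1 was not detected. Its log2 difference was -1.34 (SE 0.37, 95% interval -2.17 to -0.50, adjusted p = 0.429 by limma with every probe tested).

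Without any one array the second probe differed by -1.36 (without wild type 1) to -0.64 (without wild type 3), and the third by -1.60 (without wild type 3) to -1.07 (without wild type 1), with no overlap in any. Without knockout 1 they differed by -1.03 and -1.18. The 3 Cxcl12 probes gave the genotypes in the same order but the embryos in different orders. Among wild type arrays the second probe was highest in wild type 3 and lowest in wild type 1, the reverse of the third. The deviations of these 2 probes from the genotype means correlated at -0.94 over the 6 arrays. An exact two-sided permutation test gave p = 0.1 for each of the 3 probes, the smallest that 3 against 3 embryos can give. Of all 19381 probes tested, 6.47% were lower in knockout with no overlap. Among 1029 genes with at least 3 tested probes, every probe was lower with no overlap in 4 (0.389%): Cxcl12, Aldh1a3, Etv1 and Pdlim5. The last 3 were named after their values were seen. Every probe was higher with no overlap in 0 of these 1029 genes. The count asks for the pattern that Cxcl12 itself showed, so its share is a description and no test. The smallest of the probe differences was -0.97 for Cxcl12, -0.995 for Aldh1a3, -0.57 for Etv1 and -0.48 for Pdlim5. Probes of 1 gene are measured on the same embryos and are not replicates.

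Cxcl14, the epithelial chemokine, was lower in knockout on average, but 1 wild type embryo read as low as the knockouts. The probe ILMN_2760800 read raw signals of 163 ± 8.66, 152 ± 8.61 and 69.7 ± 3.02 in wild type 1, 2 and 3, and 39.0 ± 1.99, 66.6 ± 3.36 and 76.8 ± 2.57 in knockout 1, 2 and 3. Wild type 3 lay between knockout 2 and knockout 3, and knockout 1 was not detected. The log2 means were 6.43 ± 0.89 and 5.28 ± 0.33 (SD, n = 3 each), a difference of -1.15 (SE 0.45, 95% interval -2.17 to -0.13, limma adjusted p = 0.620). Without wild type 3 the difference was -1.66 and the genotypes did not overlap, while without wild type 1 it was -0.84. Without knockout 1 it was -0.97. The second Cxcl14 probe, ILMN_2659427, was not detected on any array, with raw signals of 39.4 to 54.1 in wild type and 30.4 to 40.0 in knockout, and was not tested.

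Cxcr4, the receptor of Cxcl12, varied more between embryos than between genotypes. The probe ILMN_2630460 was detected on all 6 arrays, with raw signals of 85.0 ± 3.94, 392 ± 16.01 and 145 ± 5.05 in wild type 1, 2 and 3, and 194 ± 6.72, 126 ± 5.997 and 101 ± 5.64 in knockout 1, 2 and 3. The knockout values all lay within the wild type range. The log2 means were 6.98 ± 1.31 and 6.80 ± 0.78 (SD, n = 3 each), a difference of -0.18 (SE 0.66, limma adjusted p = 0.987). The 95% interval of -1.70 to 1.34 leaves room for a change of more than 2-fold either way. The sign turned to 0.53 without wild type 2 and to 0.15 without knockout 3, and the difference was -0.61 without knockout 1. Wild type 2, which was highest for Cxcr4, was the lowest wild type array by the brightest Cxcl12 probe, and knockout 1 was the highest knockout array for Cxcr4 and the lowest by that probe. The order differed by probe: on the second Cxcl12 probe wild type 1 was the lowest wild type array. On that probe knockout 1 and knockout 3 were nearly equal after normalization, at log2 values of 6.05 and 6.04. By raw signal knockout 1 was the lowest knockout array there. Deviations from the genotype means over the 6 arrays correlated with those of Cxcr4 at -0.76 for the brightest Cxcl12 probe, 0.43 for the second and -0.45 for the third, so no one relation held for the gene.

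Of the 3 genes not chosen for a loss, 0 had a limma p under 0.05 after adjustment, against 23 of the 14686 features tested (0.157%). Cxcl12 and Cxcl14 had an unadjusted p under 0.05, at 0.0145 and 0.0316, as did 7.44% of all features. Cxcl12 was the 1 of the 3 with no overlap, lower in knockout, which held for 6.48% of all features.

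**Figure D2:**
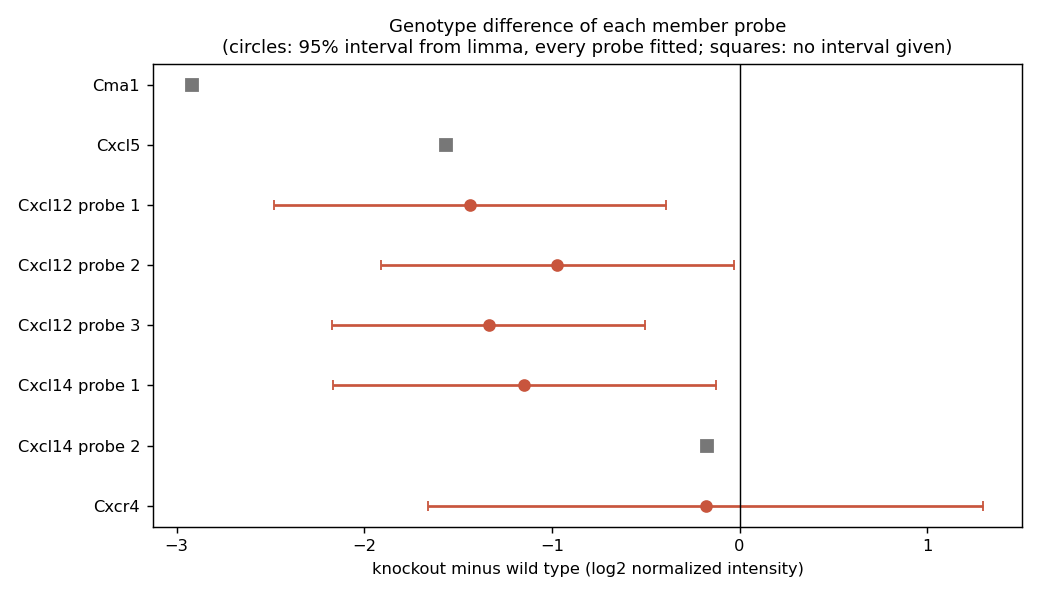
Knockout minus wild type (horizontal axis, log2 normalized intensity) for the 8 probes, numbered by brightness within a gene. Circles with bars give limma's 95% interval with every probe fitted. Squares give the value alone, for Cma1 and Cxcl5, which were chosen for their loss, and for the undetected Cxcl14 probe; Cxcr4 at -0.18 has the widest interval.

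Most other chemokine ligands were below detection in both genotypes. Of 35 further ligands 34 were on the array, 21 of these were not detected on any array and 7 were tested. In knockout 5 of the 7 were higher and 2 lower, against 49.6% of all features lower. Their median log2 difference was 0.03, against 0.0022 over all features. By limma 0 of the 7 passed and 1 had an unadjusted p under 0.05, against 0.157% and 7.44% of all features. The 1 was Ccl27a, a chemokine of skin epithelium, which read 6.70 ± 0.10 in wild type and 7.35 ± 0.10 in knockout (SD, n = 3 each; log2 difference 0.66, SE 0.26, limma adjusted p = 0.623). Its genotypes did not overlap, as for 5.66% of features in that direction. Mice carry near-identical copies of this gene, which a probe may not tell apart. The membrane-bound chemokines Cx3cl1 and Cxcl16 differed by -0.28 (SE 0.30) and -0.09 (SE 0.18), and Ccl25, known from thymus and gut, by 0.16 (SE 0.35). The neighbours of Cxcl5 in its chemokine cluster, Ppbp, Pf4, Cxcl3 and Cxcl15, were not detected on any array, and Cxcl1 was detected on 1 wild type array.

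Few receptors could be tested. Of 22 further chemokine receptors 20 were on the array, 11 were not detected on any array, and 2 were tested. Cxcr6 differed by -0.40 (SE 0.30) and the atypical Ccrl2 by -0.21 (SE 0.19). By limma 0 of the 2 passed, with 0 at an unadjusted p under 0.05, against 0.157% and 7.44% of all features. Cxcr2 and Cxcr1, through which neutrophils answer Cxcl5, were not detected on any array. Ackr3 was detected on 1 knockout array and could not be tested.

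Partners of CXCR4 signalling were mostly expressed and did not differ past the threshold. Of 17 listed 16 were on the array and 11 were tested, 5 higher and 6 lower, with a median log2 difference of -0.02. By limma 0 passed and 0 had an unadjusted p under 0.05, against 0.157% and 7.44% of all features. With shares this low, 0 of 11 says little about the partners. The arrestins Arrb2 and Arrb1, which end receptor signalling, differed by 0.61 (SE 0.43) and 0.38 (SE 0.27). The G protein subunit Gnai1 differed by 0.38 (SE 0.27). Hmgb1, a chromatin protein that can bind Cxcl12 outside cells, differed by -0.08 (SE 0.11).

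**Figure D3:**
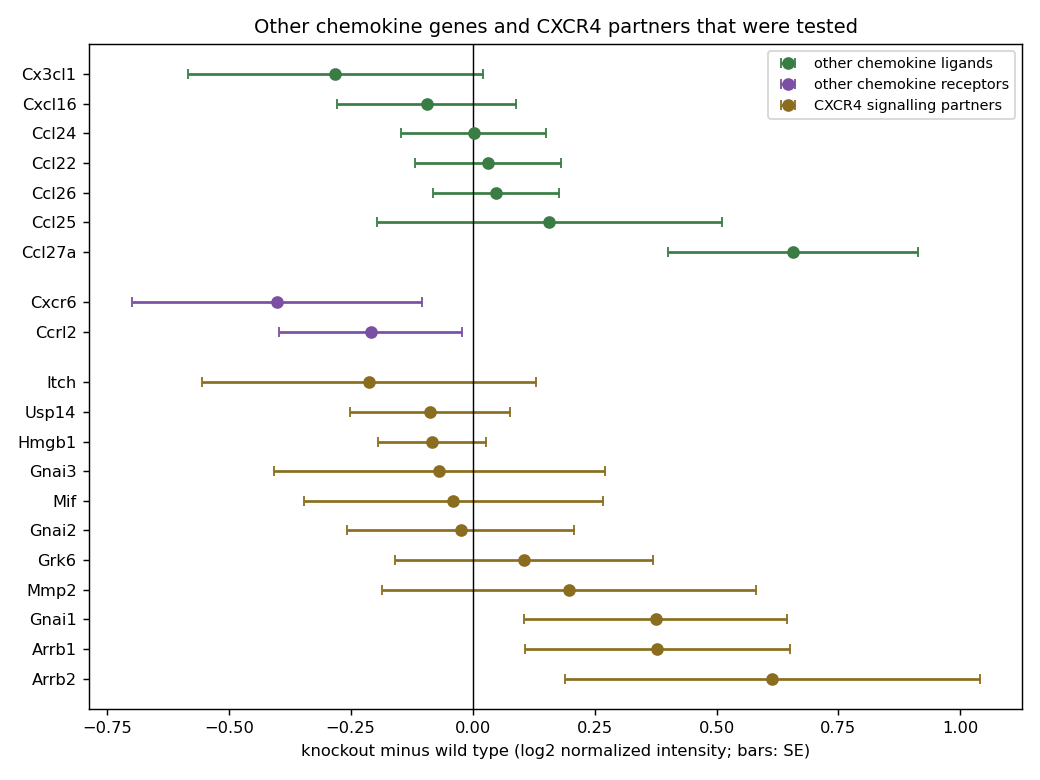
Knockout minus wild type (horizontal axis, log2 normalized intensity, points with SE bars) for the 20 tested genes among other chemokine ligands, other chemokine receptors and CXCR4 signalling partners. Ccl27a at 0.66 is farthest to the right, Cxcr6 at -0.40 is farthest to the left, and no gene passed the adjusted threshold.

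Markers of mast cells, the usual source of Cma1, were largely below detection. Of 12 listed 11 were on the array, and 9 of these were not detected on any of the 6 arrays: Cpa3, Mcpt4, Tpsb2, Tpsab1, Tpsg1, Fcer1a, Ms4a2, Hdc and Mrgprb2. The remaining pair, Kit and Gata2, are also expressed by many other cells, and were detected on all 6 arrays. Kit differed by 0.26 (SE 0.41) and Gata2 by 0.18 (SE 0.24). The mean log2 of both was 6.51 to 7.10 in wild type and 6.81 to 7.39 in knockout, and these ranges overlapped. The part of mast cells in the Cma1 values was not tested beyond this.

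The proteases encoded beside Cma1 were below detection as well. Of 14 mast cell proteases and granzymes of the chymase locus 13 were on the array, 11 were not detected on any array and 0 were tested. Gzmd was detected on 1 array of each genotype and Gzme on 1 knockout array. Of the 10 protein-coding genes nearest to Cma1 in RefSeq order, 3 on the side away from the proteases were tested: Nfatc4 differed by 0.02 (SE 0.14), Nynrin by -0.20 (SE 0.24) and Khnyn by -0.13 (SE 0.32). Around all 5 genes 50 such neighbours were listed, 43 were on the array and 14 were tested. Of these 14, 8 were lower. By limma 0 passed, with 0 at an unadjusted p under 0.05, against 0.157% and 7.44% of all features.

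Other blood cell markers were also mostly undetected or detected on few arrays. Of 14 macrophage and leukocyte markers on the array 7 were not detected on any array, the pan-leukocyte gene Ptprc and the myeloid factor Spi1 among them. Tyrobp was detected on 2 knockout arrays and Cx3cr1, Adgre1 and Mrc1 on 1 knockout array each, with none in wild type. Lyz2 was detected on 1 array of each genotype. The 2 tested were Laptm5, which differed by 1.16 (SE 0.56), and Aif1, by -0.18 (SE 0.32). Their mean log2 was 5.29 to 6.81 in wild type and 6.09 to 6.77 in knockout. Of 9 neutrophil markers 7 were not detected on any array, and the 1 tested, Camp, differed by 0.27 (SE 0.29). By limma 0 of the 3 tested genes passed, against 0.157% of all features. Of 6 renin-angiotensin genes on the array, a system that chymases act on in some species, 3 were not detected on any array and Agtrap was the 1 tested, at -0.32 (SE 0.29).

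Lists for cell types that usually make or answer Cxcl12 overlapped between genotypes in the mean of their tested genes. Of 19 head mesenchyme and neural crest markers on the array 7 were not detected on any array, Sox10 and Foxd3 among them. Of 14 endothelial markers 4 were not detected on any array: Cdh5, Tek, Tie1 and Sox17. The mean of 12 head mesenchyme and neural crest markers was 6.96 to 7.25 in wild type and 7.05 to 7.52 in knockout on the log2 scale, with 9 higher and 3 lower. The neural crest transcription factor Tfap2b had the smallest p of the list and was higher with no overlap (1.03, SE 0.21, limma adjusted p = 0.171). The collagen Col3a1 (0.93, SE 0.35) and Alx4 (0.67, SE 0.35) were also among the higher. The Pdgf receptor Pdgfra was among the lower (-0.82, SE 0.35). With no overlap between genotypes 3 of the 12 were higher and 1 lower, against 5.66% and 6.48% of all features. The mean of 7 endothelial markers was 6.10 to 6.50 in wild type and 6.10 to 6.74 in knockout, with 5 higher and 2 lower. By limma 0 of the 12 and 0 of the 7 passed, against 0.157% of all features. At an unadjusted p under 0.05 were 3 and 0, against 7.44% of all features.

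Lists of lens placode and optic vesicle genes had levels that did not overlap between genotypes. The mean of 15 surface ectoderm markers was 7.98 to 8.16 in wild type and 7.70 to 8.04 in knockout, and that of 9 lens placode markers was 9.07 to 9.32 and 8.16 to 8.24. The mean of 8 optic vesicle markers was 5.90 to 6.45 in wild type and 6.50 to 7.15 in knockout, and that of 5 red cell markers was 6.34 to 7.75 and 7.26 to 8.59. In knockout 5 surface ectoderm genes were higher and 10 lower, 2 lens placode genes were higher and 7 lower, 8 optic vesicle genes were higher and 0 lower, and 3 red cell genes were higher and 2 lower. Of the surface ectoderm, red cell and optic vesicle genes 0 passed by limma, against 0.157% of all features. At an unadjusted p under 0.05 were 3 of 15 surface ectoderm, 5 of 9 lens placode, 3 of 8 optic vesicle and 2 of 5 red cell genes, against 7.44% of all features. The part of any of these tissues in the chemokine values was not tested.

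**Figure D4:**
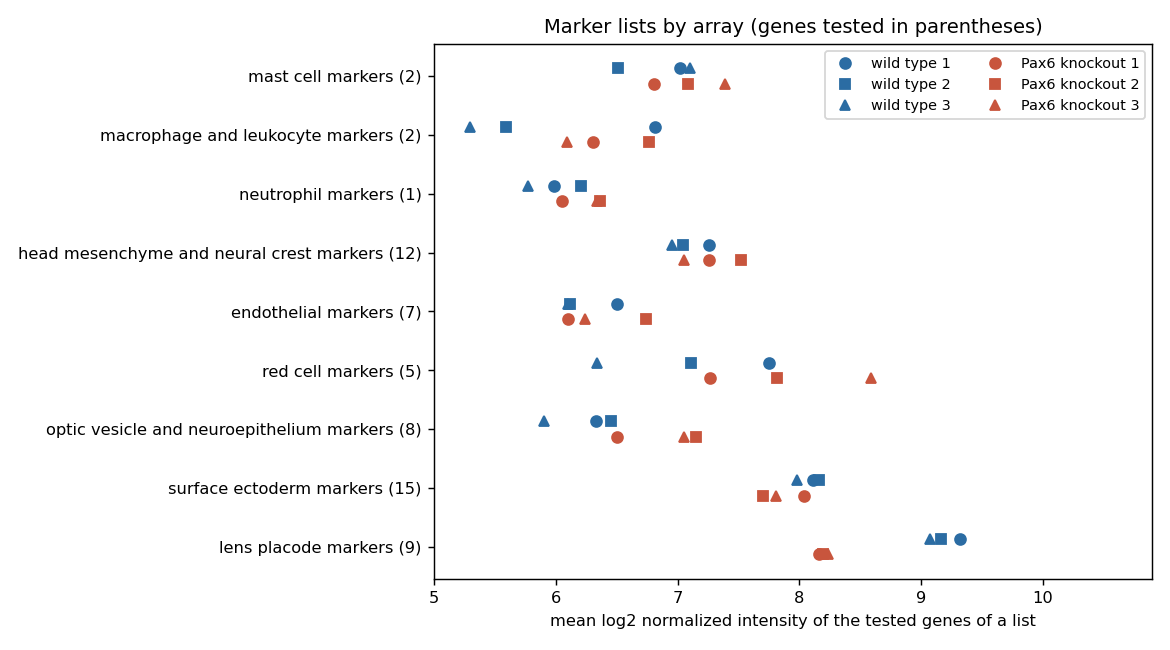
Mean log2 normalized intensity (horizontal axis) of the tested genes of each marker list on each array, with the number of genes in parentheses, wild type in blue and Pax6 knockout in red. Levels compare arrays within a list and not lists with each other; the lens placode list lies lower on all 3 knockout arrays, while the mast cell list of Kit and Gata2 overlaps.

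Genes with the profile most like each of the 5 genes were taken from 9418 other named genes by Pearson's r over the 6 arrays, as a description. For Cma1 these were Txndc12 (r = 0.992), C1qtnf3 (0.991) and Xist (0.989). Txndc12 differed by -0.29 on the log2 scale and C1qtnf3 by -1.68, so profiles of like shape had very different sizes. For Cxcl5 they were Myocd (0.990), Anxa1 (0.990) and BC048679 (0.989), and the latter pair was also detected on all 3 wild type and 0 knockout arrays. For Cma1 and Cxcl5 the likeness lies in the split by genotype, which is also the split by Xist.

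The profiles of the other 3 genes did not follow genotype alone. For Cxcl12 the closest were Cwc15 (0.991), Endog (0.990) and Pde1c (0.990), all lowest in knockout 1. For Cxcl14 they were Sgcb (0.992), Sox2 (0.984) and Wdr20 (0.982). Sox2, a transcription factor of the lens placode, read 9.62, 9.11 and 8.26 in wild type 1, 2 and 3, and 7.86, 8.25 and 8.32 in knockout 1, 2 and 3, so here too wild type 3 lay within the knockout range. For Cxcr4 they were Tmem234 (0.995), Angel1 (0.986) and Exoc2 (0.979), all highest in wild type 2.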

How the data were processed

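RNA of 6 embryos was measured on 1 Illumina array each. The deposited signals are linear intensity per probe (mean bead brightness), from GenomeStudio (per the submitters' processing notes), with a detection p-value, a count of beads (median 36 or 37 per array) and the SE over beads, a signal spread, in the same deposited table. A second table holds the authors' normalized intensity, whose method the sources used here do not give. As an alternative it was brought to log2 after negative values were counted as no signal and 16 was added. The number of arrays limits precision.

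Background was removed by normexp, fitted through the detection p-values (offset 16), quantile normalized and brought to log2 (limma 3.58.1, R 4.3.3). Probes detected on at least 3 arrays were kept (19381), 7 of the 8 member probes among them. The brightest probe stood for a gene, giving 9618 genes and 5068 unnamed probes. Symbols came from GEO's platform annotation, updated through Entrez identifiers. Genotypes were compared by lmFit and eBayes, with a variance trend and Benjamini-Hochberg adjustment over all 14686 features, and further probes in the same fit on all 19381. The replicates are embryos. The fit was tested on simulated data. A bound of "at least" sets an undetected group at the lowest detected value of each array, or at the probe's own value where higher, and holds for the offset of 16. Promoter sequences are RefSeq's.

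The members and lists were chosen with earlier results of these data known. Named were all member probes, up to 4 genes of smallest p per list where a result turned on them, and the 3 genes most correlated with each member, without predicted gene models. Alternatives were other offsets, scalings, filters, variance models and probe rules, the authors' values, a replicate block and leaving out each array.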

Additional observations from a re-analysis of the deposited data

How the results depend on the processing

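Of the 14686 features 23 passed, 15 lower and 8 higher. The count was 69 (46 lower, 23 higher) with a stricter filter on dim probes, 6 (5 lower, 1 higher) with no filter, and 1 to 6 without any one array (1 to 4 lower, 0 to 2 higher). Median scaling gave 4 higher and no variance trend 5 higher. Same-numbered embryos share only a number (correlations of deviations -0.04, -0.02 and -0.05), and a replicate block gave 1 call (1 lower, 0 higher).

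The log2 differences of Cxcl12 and Cxcl14 stayed negative and did not pass under any of the alternatives run, at -1.85 to -0.84 for Cxcl12 (adjusted p 0.226 to 0.870) and -1.66 to -0.75 for Cxcl14 (0.285 to 0.950). The stricter filter removed Cxcl14. Cxcr4 ranged from -0.76 to 0.53 without any one array, with both positive values (0.53 without wild type 2, 0.15 without knockout 3) far from the threshold. Cma1 was -2.05 with an offset of 50, -2.51 with no background correction and -3.44 from the authors' values with 16 added. Cxcl5 was -0.92 with an offset of 50 and -2.39 from the authors' values with 16 added. All 3 Cxcl12 probes kept their order of genotypes with no overlap under the 4 other scalings run.

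The median difference of the chemokine ligands was 0.66 with the stricter filter, which left Ccl27a alone, and that of the receptors was -0.0053 with no filter. The median of the CXCR4 partners was -0.19 with median scaling, 0.13 with the mean of probes, and -0.0064 to 0.10 without any one array. None of these lists gained a call. Probes near background, such as those of Cxcl14 and of Cxcl5 in knockout, limit the size that can be read from a difference.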
